A study of Mus musculus with 6 samples.

Results

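The genes described here write, maintain, read or erase DNA methylation. They are *Dnmt1*, *Dnmt3a*, *Dnmt3b*, *Dnmt3l*, *Uhrf1*, *Tet1*, *Tet2*, *Tet3*, *Tdg* and *Zfp57*, chosen by name, and all 10 were among the 23420 gene symbols in the files. RNA was sequenced from mouse E14 embryonic stem cells (ESCs) to ask which genes change when PATZ1 is lost. PATZ1 is a zinc finger protein that the study places at chromatin boundaries. The 2 genotypes were WT E14 ESCs and a *Patz1* knockout (KO) made from E14 cells with Cas9 and a guide RNA, with 3 libraries each, and both were grown with LIF and with inhibitors of MEK (PD0325901) and GSK3 (CHIR99021). DNA methylation is known to hold imprinted genes silent on 1 allele and many germline genes on both. Some of these genes passed the test in these cells, and the comparison asks what the methylation genes did. The labels give all 3 KO libraries the genotype *Patz1* -/- and do not say whether they come from 1 clone, so differences that arose when the KO cells were derived cannot be told apart from the loss of PATZ1.

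Methylation of cytosine in CpG dinucleotides is laid down by DNMT3A and DNMT3B, which DNMT3L, a relative without catalytic activity, stimulates. UHRF1 recognises hemimethylated DNA behind the replication fork and brings in DNMT1, which copies the mark onto the new strand. TET1, TET2 and TET3 oxidise methylated cytosine, TDG excises the later oxidation products, and ZFP57 binds the methylated allele of imprinting control regions and keeps it methylated in early embryos and ESCs. ESCs grown with both inhibitors are known to hold little DNA methylation compared with ESCs grown in serum. No DNA methylation was measured in these libraries.

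The deposited counts summed to between 37573923 and 47721070 in replicates 1 and 2 of either genotype, and to 11040756 and 11420268 in replicate 3 of WT and KO. Replicate 3 also stood apart in both genotypes by its share of ribosomal precursor (*Rn45s*), which was 14.4% (WT) and 12.5% (KO) where the remaining libraries had 1.79% to 3.03%. *Patz1* (chromosome 11, 3288874 to 3309083, plus strand) fell in KO to 45.5% of its WT level, with 1838, 1983 and 1843 normalized counts in the WT libraries and 853, 862 and 862 in the KO libraries (log2 fold change -1.14, SE 0.10, DESeq2 adjusted p 1.58e-26). A normalized count is the raw count over the size factor of its library, and values of the libraries are always listed in the order of replicates 1, 2 and 3. The 6 ESC markers summed to between 94539 and 100069 normalized counts per WT library and between 103447 and 106669 per KO library. The 17 markers of other cell types summed to between 1245 and 1525 in WT and between 1054 and 1384 in KO, and of their defining genes *Postn* was at or under the floor of 3 counts throughout. By type, fibroblast markers summed to between 83.5 and 110 in WT and between 134 and 166 in KO, primitive endoderm markers to between 65.0 and 73.9 and between 47.6 and 62.9, and trophoblast markers to between 136 and 162 and between 113 and 124, without overlap of the genotypes. Mesoderm and neural markers overlapped. Single markers of a type moved apart, since of the 3 fibroblast markers tested *Thy1* had a log2 fold change of 0.83, *Col1a1* of -0.23 and *Col1a2* of -0.90, and of the 2 trophoblast markers tested *Cdx2* had -0.72 and *Gata3* 0.94. The part of these markers in the results below was not tested. In bulk samples, fewer cells that use a gene and less RNA per cell cannot be told apart.

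Of the 10 genes, 9 had enough counts to be tested, and 1 of them, *Dnmt3l*, passed the adjusted p threshold of 0.05 (DESeq2), with more RNA in KO. Across the transcriptome, 7.49% of the 15309 genes tested passed the same threshold, 2.7% with more and 4.78% with less RNA in KO. Libraries with the same replicate number varied together in WT and KO, so the same test was also run with the replicate number in the model. In that fit 2 of the 9 genes passed, *Dnmt3l* with more and *Uhrf1* with less RNA in KO. Of all genes tested in that fit, 14.6% passed, 6.68% with more and 7.95% with less RNA in KO. The median log2 fold change of the 9 genes was 0.04, and that of all genes tested was 0.01. None of the 10 genes lies on chromosome 11 or X, where the median log2 fold change over genes was -0.26 and 0.18. On the 7 autosomes that hold them, the median was between 0.01 and 0.05.

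**Figure D1:**
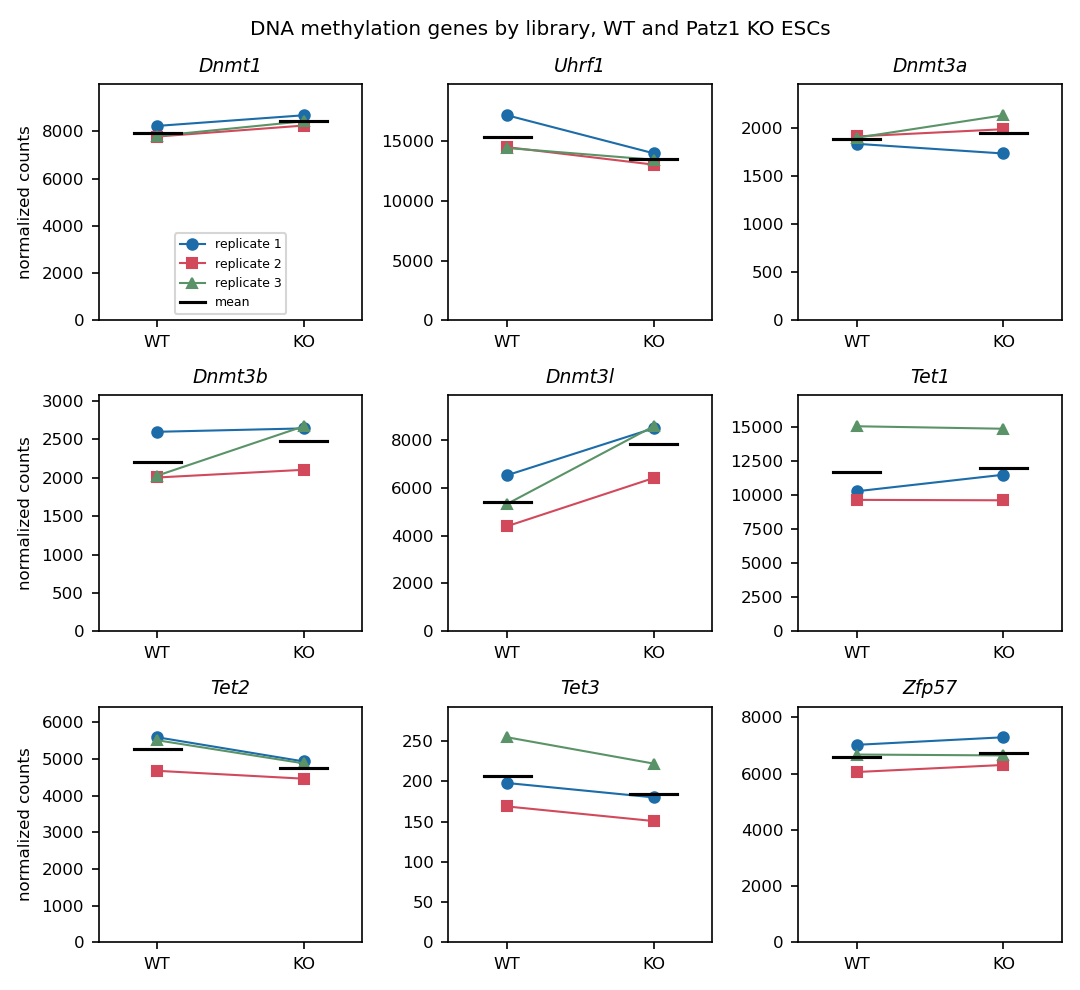
Normalized counts of the 9 tested genes in each library of WT and KO, with lines joining libraries of the same replicate number and a black bar at the mean of the 3 libraries. *Dnmt3l* was higher in KO in each of the 3 same-numbered pairs and *Uhrf1* was lower in each, while *Tet1* stood highest in replicate 3 of both genotypes.

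*Dnmt3l* lies on chromosome 10, 78041947 to 78063622 in the GENCODE annotation (GRCm38, plus strand). RefSeq gives it 3 transcription starts, all of them downstream of the GENCODE start, so that the windows before them lie inside the GENCODE span of the gene. The 250 bases before the first RefSeq start also lie inside the neighbouring gene *Aire* (78030022 to 78043610, minus strand), which runs the opposite way and overlaps the GENCODE start of *Dnmt3l*. *Aire* encodes the autoimmune regulator that lets thymic epithelial cells transcribe tissue-restricted genes. The windows before the first and the second *Dnmt3l* start and before the *Aire* start are shown because RNA of both genes was higher in KO (values below), with the window before the second start of *Uhrf1* for contrast in CpG content. Each is written 5′ to 3′ on the strand of its gene, from RefSeq on GRCm38.p6, with CpG dinucleotides in capitals.
*Dnmt3l*, first start, chr10:78042037-78042286, plus strand: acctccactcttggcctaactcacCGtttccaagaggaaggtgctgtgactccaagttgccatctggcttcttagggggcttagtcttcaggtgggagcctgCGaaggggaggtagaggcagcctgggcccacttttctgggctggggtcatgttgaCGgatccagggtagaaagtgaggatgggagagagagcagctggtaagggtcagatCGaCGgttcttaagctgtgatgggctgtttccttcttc
*Dnmt3l*, second start, chr10:78049592-78049841, plus strand: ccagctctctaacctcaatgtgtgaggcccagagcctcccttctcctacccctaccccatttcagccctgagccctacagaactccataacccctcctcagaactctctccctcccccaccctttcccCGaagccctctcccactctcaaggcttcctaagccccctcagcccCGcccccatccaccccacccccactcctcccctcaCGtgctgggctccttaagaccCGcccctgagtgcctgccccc
*Aire*, chr10:78043611-78043860, minus strand: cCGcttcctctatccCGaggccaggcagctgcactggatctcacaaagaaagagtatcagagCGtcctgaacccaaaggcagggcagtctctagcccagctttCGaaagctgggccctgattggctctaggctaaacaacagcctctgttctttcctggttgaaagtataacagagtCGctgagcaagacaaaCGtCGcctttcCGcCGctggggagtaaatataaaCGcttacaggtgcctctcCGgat
*Uhrf1*, second start, chr17:56304063-56304312, plus strand: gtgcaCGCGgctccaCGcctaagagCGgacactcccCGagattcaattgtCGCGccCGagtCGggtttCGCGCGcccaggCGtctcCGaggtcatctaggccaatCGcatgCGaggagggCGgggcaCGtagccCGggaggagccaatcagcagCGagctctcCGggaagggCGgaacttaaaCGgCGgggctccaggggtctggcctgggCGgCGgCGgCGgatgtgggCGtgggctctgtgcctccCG

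These windows held 5, 4, 11 and 30 CpG dinucleotides. The window before the third *Dnmt3l* start held 3, so that all 3 lay below the median of 6 over 32851 windows of the same length in RefSeq. Of all windows, 44.4%, 37.8% and 29.0% held fewer CpG than those before the first, the second and the third *Dnmt3l* start. Among the other genes, *Tet2* had the CpG-richest window, with 51, and 99.9% of all windows held fewer. Low counts were not particular to *Dnmt3l*, since the first *Dnmt1* window held 2 and the *Zfp57* windows held 6, 7 and 3. The first *Uhrf1* window held 10, fewer than the second one shown. The string GGGAGGG, searched on both strands, is the core of the G-rich site known for MAZ, a zinc finger protein related to PATZ1, and it was chosen after the windows had been read. It was found in 10 of the 19 windows of the 10 genes and in 19.7% of all windows. Because of that choice, and since the windows were not matched for GC content, these shares cannot show enrichment of the string. The second and the third *Dnmt3l* windows held it once each, and the first *Dnmt3l* window and the *Aire* window did not hold it. *Dnmt3a* held the most copies in a window, 5 before the last of its starts. A match is a string in the sequence and no measure of binding.

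The WT libraries had 6514, 4388 and 5317 normalized counts of *Dnmt3l*, and the KO libraries had 8471, 6397 and 8557. The genotypes overlapped, since WT replicate 1 was above KO replicate 2, but KO was higher within each same-numbered pair, by 1.30, 1.46 and 1.61 times. The means were 5407 ± 1066 (WT) and 7809 ± 1223 (KO; SD, n = 3 per genotype), and the log2 fold change was 0.53 (SE 0.15, DESeq2 adjusted p 0.00953), or 1.44-fold with a 95% confidence interval of 1.18 to 1.77. With the replicate number in the model the adjusted p was 1.37e-13 and the log2 fold change 0.53 (SE 0.07). The call was lost with edgeR (adjusted p 0.0863) and limma-voom (adjusted p 0.0703). It was lost too when replicate 2 of WT was left out (DESeq2 adjusted p 0.159), or replicate 1 or 3 of KO (0.169 and 0.0767), and the adjusted p was 0.568 with neither replicate 3 library. Its log2 fold change lay between 0.40 and 0.69 in all 15 alternatives. No other gene's transcripts shared a stretch of 50 bases with the longest *Dnmt3l* transcript.

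The neighbour *Aire* rose more steeply. It was singled out after its values were seen. The WT libraries had 112, 58.6 and 63.0 normalized counts of *Aire* and the KO libraries 352, 331 and 312, without overlap between the genotypes. The log2 fold change was 2.05 (SE 0.23, DESeq2 adjusted p 7.11e-16), and *Aire* passed the threshold in all 15 alternatives, with log2 fold changes between 1.83 and 2.47. The exons of *Aire* and *Dnmt3l* overlap by 67 bases on opposite strands, which is 2.24% of the exon length of *Dnmt3l*. The labels name a stranded library kit, but the strand setting of the counting is not stated. How reads in those bases were counted is therefore not known. The count of *Aire* was between 1.18% and 5.17% of that of *Dnmt3l* in the same library, and *Aire* gained 254 normalized counts where *Dnmt3l* gained 2402. Within 300 kb of *Dnmt3l*, 11 genes were tested, and *Aire* and *Dnmt3l* were the 2 that passed. The other 9 had log2 fold changes between -0.28 and 0.41 and adjusted p-values of at least 0.0753 (DESeq2). *Pfkl*, the liver-type phosphofructokinase gene, had the highest of these values, and with the replicate number in the model its adjusted p was 4.86e-06. Over the 531 genes of chromosome 10 with a mean of at least 50 normalized counts, the median log2 fold change was 0.04.

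**Figure D2:**
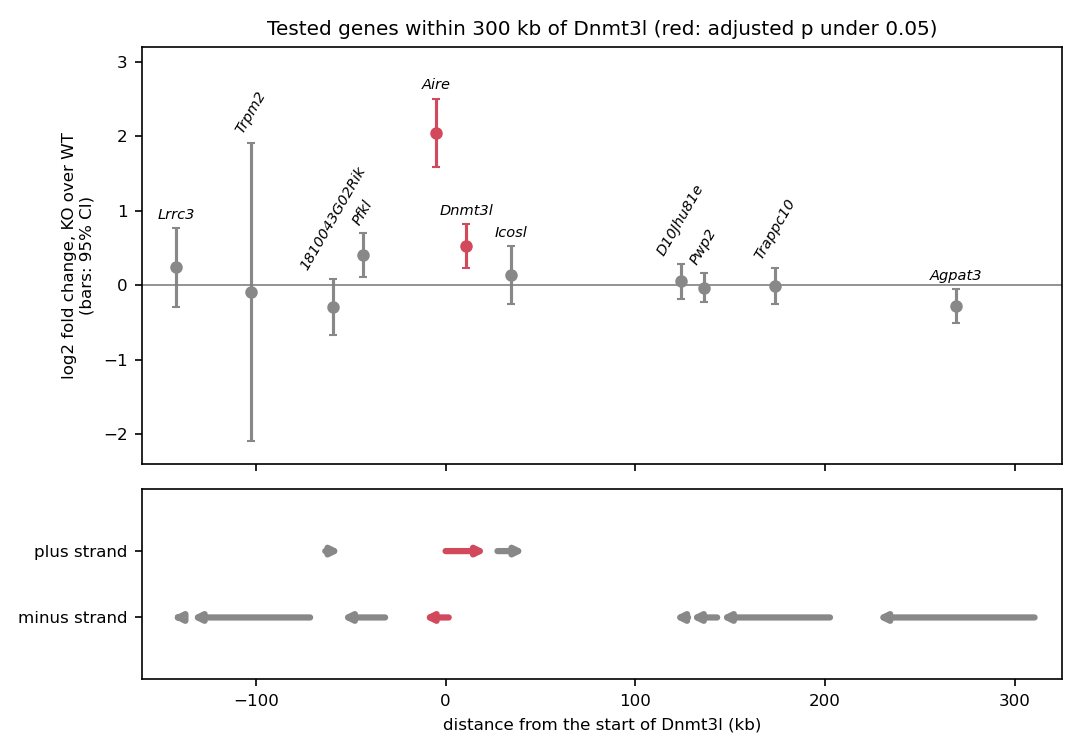
Log2 fold change (KO over WT, with 95% confidence interval) of the 11 tested genes within 300 kb of *Dnmt3l*, placed at the middle of each gene by distance in kb from the start of *Dnmt3l*, above the genes drawn as arrows by strand. *Aire* at 2.05 and *Dnmt3l* at 0.53, which overlap on opposite strands, are the 2 genes in red that passed the threshold.

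The catalytic de novo enzymes *Dnmt3a* and *Dnmt3b* did not pass the threshold. *Dnmt3a* (chromosome 12, 3806007 to 3914443, plus strand) measured 1831, 1908 and 1895 normalized counts in the WT libraries and 1731, 1983 and 2127 in the KO libraries. The KO values lay on both sides of the WT values, with a log2 fold change of 0.05 (SE 0.11, DESeq2 adjusted p 0.910) and a 95% confidence interval of 0.89 to 1.20-fold. *Dnmt3b* (chromosome 2, 153649450 to 153687730, plus strand) measured 2600, 2005 and 2029 normalized counts in the WT libraries and 2644, 2105 and 2672 in the KO libraries. KO was the higher library in each of the 3 pairs, by 1.02, 1.05 and 1.32 times, and the genotypes overlapped. *Dnmt3b* had a log2 fold change of 0.16 (SE 0.14, DESeq2 adjusted p 0.671), and with the replicate number in the model the adjusted p was 0.242. Of the 50-base windows of the longest *Dnmt3b* transcript, 11.5% also occur in *Dnmt3c*, a rodent copy of *Dnmt3b* used in male germ cells, for which no value is given here. Counts from those windows are uncertain.

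*Dnmt1*, the maintenance methyltransferase (chromosome 9, 20907209 to 20959888, minus strand), measured 8228, 7778 and 7804 normalized counts in the WT libraries and 8678, 8243 and 8425 in the KO libraries. Every KO library was above every WT library, by a small margin. The log2 fold change was 0.09 (SE 0.08, DESeq2 adjusted p 0.706), and the 95% confidence interval ran from 0.95 to 1.19-fold.

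*Uhrf1* (chromosome 17, 56303321 to 56323486, plus strand) was lower in KO. The WT libraries had 17197, 14525 and 14454 normalized counts and the KO libraries 14011, 13061 and 13472. Every KO library was below every WT library, and the KO mean was 87.8% of that in WT. The log2 fold change was -0.19 (SE 0.10, DESeq2 adjusted p 0.327). With the replicate number in the model it was also -0.19 (SE 0.06), and the adjusted p of 0.0108 passed the threshold, as did that of edgeR with the same term (0.0227). Among the 9 genes, *Dnmt1* and *Uhrf1* were the 2 whose libraries did not overlap between genotypes, and 25.6% of all genes tested had no overlap. Of the 50-base windows of the longest *Uhrf1* transcript, 18.9% occur in other genes' transcripts, most of them in *Gm5648*, for which no value is given here. Reads from these windows may have been counted for *Uhrf1* or left out.

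Because UHRF1 and DNMT1 act together, the ratio of *Uhrf1* to *Dnmt1* per kb of exon was taken within each library, where no size factor is needed. The log2 ratio was 1.86, 1.69 and 1.68 in the WT libraries and 1.48, 1.46 and 1.47 in the KO libraries. It was lower in every KO library, with means of 1.74 ± 0.10 (WT) and 1.47 ± 0.01 (KO; SD, n = 3 per genotype). The difference of -0.27 gave p = 0.1 in the exact two-sided permutation test, which is the smallest p that 3 against 3 libraries allow, and 0.4 after adjustment over the 4 ratios examined. The ratio of *Dnmt3a* to *Dnmt3b* differed by -0.12 (exact permutation p = 0.6), that of *Tet1* to *Tet2* by 0.19 (exact permutation p = 0.4) and that of *Tet1* to *Dnmt1* by -0.04 (exact permutation p = 0.7), all on the log2 scale, all with overlapping genotypes and all 0.7 after adjustment. Within the pairs of libraries that share a replicate number, the KO minus WT differences were -0.37, -0.24 and -0.21 for *Uhrf1* to *Dnmt1*, -0.11, -0.01 and -0.23 for *Dnmt3a* to *Dnmt3b*, 0.34, 0.06 and 0.16 for *Tet1* to *Tet2*, and 0.08, -0.09 and -0.13 for *Tet1* to *Dnmt1*. The first 3 ratios kept 1 sign in every pair, and the exact sign-flip test over 3 pairs cannot give a p below 0.25.

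Of 12 genes of DNA replication and proliferation, which are known to be expressed in cycling cells together with *Uhrf1* and *Dnmt1*, 0 passed the threshold (DESeq2), 1 had an unadjusted p under 0.05, and 0 passed with edgeR. Their median log2 fold change was 0.03, and 3 of the 12 passed with the replicate number in the model, 1 with more and 2 with less RNA in KO. Without WT replicate 3, and without both replicate 3 libraries, 2 of the 12 passed, *Ccne1* and *Top2a*, both with less RNA in KO. Of all genes tested, 7.49% passed in the first fit and 14.6% in the second.

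The TET dioxygenase genes did not pass the threshold. *Tet1* (chromosome 10, 62804570 to 62908996, minus strand) measured 10308, 9674 and 15087 normalized counts in the WT libraries and 11523, 9643 and 14905 in the KO libraries. Replicate 3 stood 1.51 times in WT and 1.41 times in KO above the mean of the other libraries of its genotype. The KO to WT ratio within the pairs was 1.12, 1.00 and 0.99, and the log2 fold change was 0.04 (SE 0.17, DESeq2 adjusted p 0.952). With the replicate number in the model the SE was 0.06, for a 95% confidence interval of -0.06 to 0.16 on the log2 scale. *Tet2* (chromosome 3, 133463679 to 133545139, minus strand) measured 5596, 4681 and 5515 normalized counts in the WT libraries and 4936, 4466 and 4884 in the KO libraries. KO was lower in each of the 3 pairs while the genotypes overlapped. *Tet2* had a log2 fold change of -0.14 (SE 0.10, DESeq2 adjusted p 0.565), and with the replicate number in the model the adjusted p was 0.104 with DESeq2 and 0.0452 with edgeR. *Tet3* (chromosome 6, 83362373 to 83459084, minus strand), the TET enzyme known from oocytes and zygotes, measured 198, 169 and 255 normalized counts in the WT libraries and 180, 151 and 222 in the KO libraries. Its log2 fold change was -0.17 (SE 0.21, DESeq2 adjusted p 0.803), with a 95% confidence interval of 0.67 to 1.18-fold. The KO to WT ratio of *Tet3* within the pairs was 0.91, 0.89 and 0.87, and the genotypes overlapped. With the replicate number in the model its log2 fold change was -0.16 (SE 0.18, DESeq2 adjusted p 0.658).

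*Tdg* (chromosome 10, 82629828 to 82650799, plus strand), the thymine DNA glycosylase, was hardly counted, with 8, 4 and 0 raw counts in the WT libraries and 8, 5 and 0 in the KO libraries. The gene was too low to be tested, and no adjusted p was given. In both replicate 3 libraries no count was found, which allows up to 3 counts, or 8.21 (WT) and 7.93 (KO) normalized counts. Of the 50-base windows of the longest *Tdg* transcript, 66.3% also occur in transcripts of 5 other genes, 47.4% in the processed pseudogene *Tdg-ps*, and 6.83% of the *Tdg* exon length overlaps *Glt8d2* on the opposite strand. Whether the authors' counting left out reads that map to several places is not stated, so the level of *Tdg* RNA is not known from these counts.

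*Zfp57* (chromosome 17, 37001163 to 37010635, plus strand) measured 7021, 6055 and 6676 normalized counts in the WT libraries and 7289, 6305 and 6644 in the KO libraries. The values interleaved, with a log2 fold change of 0.04 (SE 0.10, DESeq2 adjusted p 0.931) and a 95% confidence interval of 0.89 to 1.18-fold.

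**Figure D3:**
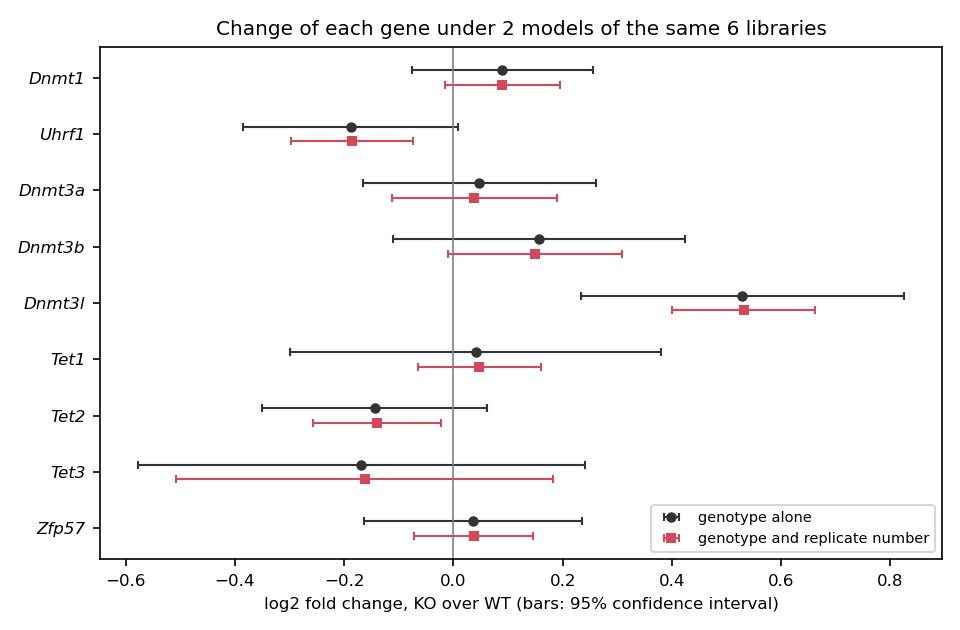
Log2 fold change (KO over WT) of each of the 9 tested genes with its 95% confidence interval, from DESeq2 with genotype alone (black circles) and with genotype and replicate number (red squares). The interval of *Dnmt3l* lies above 0 in both models, and those of *Uhrf1* and *Tet2* lie below 0 only with the replicate number, where they run from -0.30 to -0.07 and from -0.26 to -0.02.

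**Figure D4:**
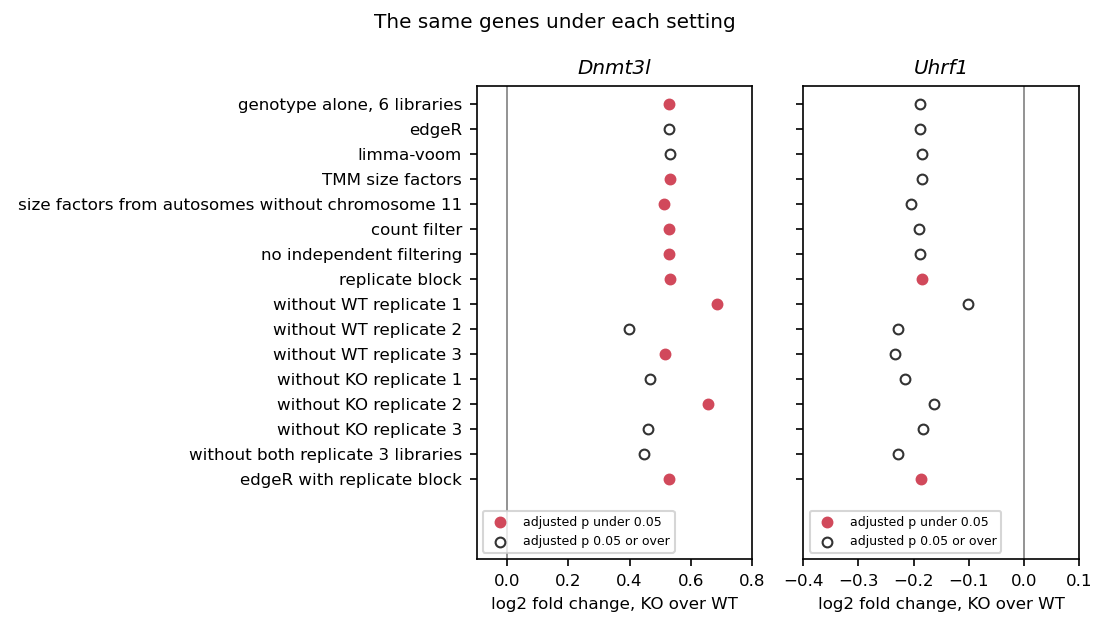
Log2 fold change (KO over WT, x axis) of *Dnmt3l* and *Uhrf1* under each setting (rows), with filled points where the adjusted p was under 0.05. *Dnmt3l* stays between 0.40 and 0.69 and is called in 9 of the 15 alternatives to genotype alone with 6 libraries, and *Uhrf1* stays between -0.23 and -0.10 and is called in 2.

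Levels of different genes were compared per kb of merged exon. In WT, *Uhrf1* was the most abundant, with 3614 ± 367 normalized counts per kb (SD, n = 3). *Dnmt3l* followed with 1809 ± 357 and *Zfp57* with 1739 ± 129, and these neighbours in the order overlapped between libraries. *Dnmt1* had 1076 ± 34.3 per kb and *Tet1* 756 ± 191. *Dnmt3b* had 433 ± 66.0, *Tet2* 312 ± 30.0, *Dnmt3a* 113 ± 2.47 and *Tet3* 12.4 ± 2.62 per kb. Apart from *Dnmt3l* and *Zfp57*, no neighbours in this order overlapped in WT. The order was the same in KO, where *Dnmt3l* had 2613 ± 409 and *Zfp57* 1782 ± 132 per kb. Divided by the length of the longest transcript instead, *Tet2* came above *Dnmt3b*, at 573 per kb where *Dnmt3b* had 512 in WT, so the order of these 2 genes depends on the length used. *Dnmt3l*, the cofactor, had more RNA per kb than the enzyme genes *Dnmt3a* and *Dnmt3b* in both genotypes.

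The partners of these genes were taken from a list of 56, of which 55 were in the files and 54 were tested. Of these, 4 passed the threshold (7.41%, against 7.49% of all genes), 1 with more and 3 with less RNA in KO, and the median log2 fold change was 0.03. Among the 7 genes of imprint protection, 3 passed. *Atf7ip*, the partner of the H3K9 methyltransferase SETDB1, fell from 1514 ± 162 to 1060 ± 81.2 normalized counts (log2 fold change -0.51, SE 0.12, DESeq2 adjusted p 6.50e-04). *Dppa3*, which encodes STELLA and is known to keep UHRF1 away from chromatin, fell from 56.6, 54.4 and 41.1 normalized counts in the WT libraries to 26.0, 24.9 and 21.1 in the KO libraries. Its log2 fold change was -1.08 (SE 0.36, DESeq2 adjusted p 0.0375), and the call was lost in 5 of the 6 fits without 1 library, all but the one without WT replicate 3. *Atrx*, a chromatin remodeller that works with *Daxx*, rose from 10680 ± 1595 to 14107 ± 1739 normalized counts (log2 fold change 0.40, SE 0.13, DESeq2 adjusted p 0.0295). *Atrx* lies on X, 105797615 to 105929403, in a stretch from *Pin4* to the end of the chromosome where 164 of 177 genes had a log2 fold change above 0 and the median was 0.44. Of all 15309 genes tested, 7898 were above 0. *Pin4* was taken as the start of the stretch after values of these libraries were seen. The call of *Atrx* held in 9 of the 15 alternatives. It was lost with edgeR (adjusted p 0.112), with limma-voom (adjusted p 0.0815) and in 4 of the 6 fits without 1 library, those without replicate 1 or 2 of WT (DESeq2 adjusted p 0.205 and 0.286) and without replicate 1 or 3 of KO (0.259 and 0.151). *Trim28*, *Setdb1*, *Zfp445* and *Daxx*, the other 4 genes of imprint protection, did not pass.

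Of the 2 CpG island binders, *Kdm2b*, which brings a Polycomb complex to unmethylated CpG islands, fell from 2718, 2465 and 2541 normalized counts in the WT libraries to 2043, 1669 and 1847 in the KO libraries. The genotypes did not overlap, and the log2 fold change was -0.47 (SE 0.11, DESeq2 adjusted p 6.54e-04). *Atf7ip* and *Kdm2b* passed the threshold in all 15 alternatives. In the other 6 groups of partners 0 genes passed in the DESeq2 fit on genotype alone or with edgeR without a block. With edgeR and the block genes of 5 of the 6 passed, where 3739 of all 14995 genes tested did. *Zbtb4*, a reader of methylated DNA, passed with limma-voom, with the low-count filter, without WT replicate 3 and without both replicate 3 libraries, and *Gadd45a*, of the base excision repair group, passed without WT replicate 3. Tested there were 5 maintenance partners, 8 further methyltransferase-like genes and regulators, 8 readers of methylated DNA, 4 TET partners and cofactor enzymes, 15 genes of base excision repair and deamination and 5 methyl donor genes. In these 6 groups the unadjusted p was under 0.05 for 1, 0, 1, 1, 3 and 0 genes (DESeq2). With the replicate number in the model, 9 of the 54 partners passed, where 14.6% of all genes tested did. The 5 added were *Hells*, the remodeller that maintenance methylation needs, *Zbtb4*, *Idh1*, *Lig3* and *Gadd45a*, with log2 fold changes in that fit of 0.16, 0.71, -0.21, -0.24 and 0.45. *Zbtb4* and *Lig3* lie on chromosome 11, where the median log2 fold change was -0.26.

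**Figure D5:**
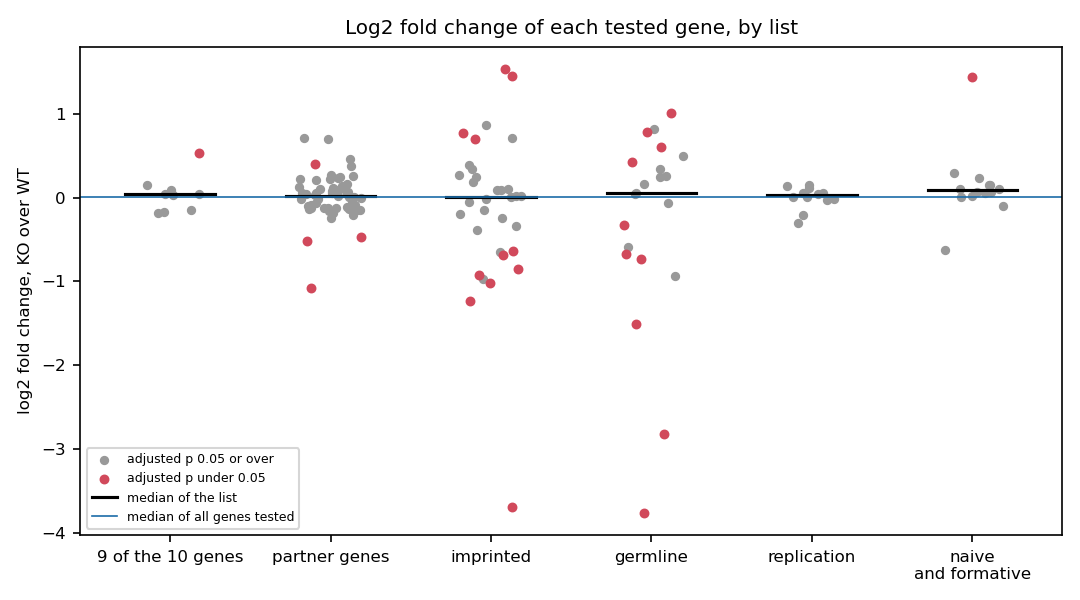
Log2 fold change (KO over WT, y axis) of every tested gene in 6 lists, with red points for an adjusted p under 0.05, a black bar at the median of each list and a blue line at the median of all genes. In red are 1 of 9 methylation genes, which run from -0.19 to 0.53, 4 of 54 partners, which run from -1.08 to 0.72, 11 of 33 imprinted genes and 10 of 21 germline genes. The lists were not compared by a test.

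Of 39 imprinted genes, 33 were tested and 11 passed the threshold, 4 with more and 7 with less RNA in KO, beside 7.49% of all genes tested, 2.7% with more and 4.78% with less. *Igf2*, a growth factor gene expressed from the paternal allele, rose from 37.6 ± 6.48 to 105 ± 5.24 normalized counts (log2 fold change 1.53), and *Cdkn1c*, a cell cycle inhibitor expressed from the maternal allele, rose from 100 ± 29.8 to 272 ± 54.1 (log2 fold change 1.45). *Grb10*, an adaptor that restrains growth, fell from 842 ± 51.1 to 354 ± 34.3 (log2 fold change -1.23) and lies on chromosome 11, where the median was -0.26. *Plagl1*, a zinc finger gene expressed from the paternal allele and located on chromosome 10, fell from 1210 ± 127 to 596 ± 29.2 (log2 fold change -1.02). Genes expressed from either parental allele moved both ways, with 2 of the 6 paternally and 2 of the 5 maternally expressed genes that passed higher in KO. Of 21 germline genes whose promoters DNA methylation is known to silence, all were tested and 10 passed, 4 with more and 6 with less RNA in KO, to be read beside the same shares of all genes. Between 6 and 9 passed without 1 library. In those fits, genes with less RNA in KO outnumbered those with more only without replicate 2 or 3 of WT. *Fkbp6*, needed in meiosis, fell from 658 ± 85.3 to 92.2 ± 6.61 normalized counts (log2 fold change -2.82), and *Hormad1*, of the meiotic chromosome axis, fell from 559 ± 65.0 to 333 ± 58.8 (log2 fold change -0.74). *Taf7l* rose from 99.7 ± 21.5 to 197 ± 36.5 (log2 fold change 1.01) and lies in the stretch of X beyond *Pin4* where the median was 0.44. *Mael*, a piRNA pathway gene, rose from 166 ± 25.0 to 290 ± 25.7 (log2 fold change 0.79). These lists were drawn up with results of these libraries known, and their counts are not independent evidence. The 8 genes named here passed the threshold in all 15 alternatives.

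Since *Dnmt3l* and *Dnmt3b* RNA is known to change as ESCs leave the naive state, naive and formative genes were examined as well. Of 10 naive genes, 0 passed the threshold with DESeq2 or edgeR, 1 had an unadjusted p under 0.05 with each, and 2 passed with the replicate number in the model, both with more RNA in KO (*Nr5a2* and *Zfp42*). With edgeR and the replicate number, 1 of the 10 passed, which was *Nr5a2*, where 3739 of all 14995 genes tested did. The shares of all genes in the DESeq2 fits were 7.49% and 14.6%. Of 4 formative genes tested, *Otx2* passed, rising from 45.0 ± 1.42 to 121 ± 6.35 normalized counts (log2 fold change 1.45, SE 0.25, DESeq2 adjusted p 7.56e-07). The remaining 3 did not pass, with log2 fold changes of -0.63 for *Pou3f1*, 0.02 for *Lef1* and 0.30 for *Sall2*. *Pou5f1*, the core pluripotency factor OCT4, averaged 32176 ± 1842 (WT) and 35441 ± 885 (KO) normalized counts (log2 fold change 0.14, DESeq2 adjusted p 0.454), and with the replicate number in the model the adjusted p was 0.0405 with DESeq2, the 1 of the 15 alternatives in which it passed, and 0.0610 with edgeR.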

How the data were processed

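Total RNA depleted of ribosomal RNA was sequenced from 3 WT and 3 KO libraries. The authors deposited 1 file per library that held raw, unscaled counts of reads for each gene symbol. Per the labels' processing notes, TopHat2 (2.1.1), Bowtie2 (2.3.1.0), featureCounts (1.6.2), DESeq2 and the mm10 build were used. The gene annotation, the strand setting, the treatment of reads with several matches and of duplicates are not given in the sources used here. The labels give a stranded library kit.

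The Wald test of DESeq2 (version 1.42.0, two-sided, genotype as the term, default filtering, no shrinkage, Benjamini-Hochberg adjustment over all genes tested, threshold 0.05) was run on the whole table, as the methods of the study state for the test and threshold. Confidence intervals are 1.96 SE to either side. A floor of 3 counts per library was used, and such floors cover counting error only. Ratios were compared with exact two-sided permutation tests over libraries. Alternatives were edgeR (4.0.16), limma-voom (3.58.1), TMM size factors, size factors from autosomal genes outside chromosome 11, a low-count filter (10 counts or more in 3 or more libraries), the fit without independent filtering, a replicate block and leaving out each library. Leaving out both replicate 3 libraries and edgeR with a block were added after the data were seen. The code was tested on simulated counts.

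The 10 genes and all lists were chosen with earlier results of these data known. The genes named are the 10, the partners under the threshold, at most 4 genes of each other list under the threshold with the largest change and a mean of at least 50 normalized counts in the higher genotype, and *Patz1*, *Pou5f1* and *Rn45s*. Other genes named were singled out after their values were seen. Positions came from GENCODE M21 (GRCm38, the same build as mm10) and were found for 23037 of 23420 symbols, 1260 of them through an older symbol. Promoter windows came from RefSeq (GRCm38.p6). All 10 genes had at least 1 window.

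Replicate numbers paired the libraries. Over 11524 genes, deviations from the genotype means correlated at 0.469, 0.619 and 0.684 between WT and KO libraries with replicate number 1, 2 and 3. The pairing comes from these values and from the shared numbers in the titles. The study calls the replicates biological, and the labels do not say whether they are separate cultures, so p-values measure the spread between these libraries, which may be technical. No 2 libraries agreed within sampling noise.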

Additional observations from a re-analysis of the deposited data

How the results depend on the processing

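The number of genes under the threshold across the transcriptome was 2131 of 14567 with the replicate block and 3739 of 14995 with edgeR and the block. It was between 583 and 1341 without 1 library. *Dnmt3l*, the 1 gene of the 10 that passed, was lost with edgeR and limma-voom (0 genes under the threshold, with 1 and 2 at an unadjusted p under 0.05), without both replicate 3 libraries (0 by DESeq2, 1 unadjusted), and in 3 of the 6 fits without 1 library, so that these fits gave between 0 and 1 genes. Of the 9 genes tested, 2 passed with the replicate block and 3 with edgeR and the block. Of the 54 partners, 9 passed with the block, 15 with edgeR and the block, and between 2 and 6 without 1 library. Imprinted genes under the threshold numbered 18 of 33 with edgeR and the block, and germline genes between 6 (without KO replicate 1) and 9 without 1 library. In DESeq2, the pairing by replicate number added the calls of *Uhrf1* and of 5 partners, and that of *Pou5f1*, which did not pass with edgeR and the block (adjusted p 0.0610). In edgeR, it added *Dnmt3l*, *Uhrf1* and *Tet2* (adjusted p 0.0863, 0.283 and 0.425 without it, and 2.0e-05, 0.0227 and 0.0452 with it). The partner count in edgeR went from 3 to 15, while that of all 14995 genes tested went from 961 to 3739. The cause of these changes was not tested.

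Genes with differences near 0 changed sign without 1 library. The log2 fold change lay between -0.013 and 0.13 for *Dnmt3a* (-0.0096 without both replicate 3 libraries), between -0.14 and 0.26 for *Tet1*, and between -0.025 and 0.084 for *Zfp57*. The log2 ratio difference lay between -0.26 and 0.018 for *Dnmt3a* over *Dnmt3b*, and between -0.21 and 0.17 for *Tet1* over *Dnmt1*. With the replicate block, the sign-flip test over 3 pairs cannot give a p below 0.25 for any ratio. Divided by the longest transcript, WT levels per kb were 4292 for *Uhrf1*, 2967 for *Dnmt3l*, 2535 for *Zfp57*, 1352 for *Dnmt1*, 573 for *Tet2*, 512 for *Dnmt3b*, 194 for *Dnmt3a* and 18.99 for *Tet3*.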

Other observations

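Other genes of the lists that passed the threshold had not been named by the rule above and were picked here after their values were seen. *Peg13*, a paternally expressed non-coding RNA, averaged 47.7 normalized counts over the WT and 5.26 over the KO libraries (log2 fold change -3.70, DESeq2 adjusted p 2.79e-08). *Rian* and *Mirg*, maternally expressed non-coding RNAs of the Dlk1-Dio3 domain, and *Rtl1*, expressed from the paternal allele of the same domain, were all lower in KO, with log2 fold changes of -0.92, -0.68 and -0.85. *Meg3*, also of that domain, was not among the 5 maternally expressed genes that passed. *Phlda2*, of the same Kcnq1 domain as *Cdkn1c*, had a log2 fold change of 0.77 (DESeq2 adjusted p 0.01004). Among germline genes, *Dazl*, an RNA-binding protein gene of germ cells, had a log2 fold change of -0.67 (adjusted p 8.86e-06), and *Syce1*, of the synaptonemal complex, one of 0.60 (adjusted p 7.81e-05).

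*Zbtb4*, a reader of methylated DNA on chromosome 11, averaged 104 normalized counts over the WT and 161 over the KO libraries, without overlap between the genotypes (log2 fold change 0.70, DESeq2 adjusted p 0.0534). It was higher in KO on a chromosome where the median over genes was -0.26. Of the markers of other cell types, *Thy1* (72.5 normalized counts on average for WT, 129.9 for KO) and *Cdx2* (112 and 68.1, in the same order) passed the threshold, with log2 fold changes of 0.83 and -0.72. The remaining tested fibroblast and trophoblast markers had values on the other side of 0. *Thy1* and *Cdx2* were the 2 called of the 20 markers tested, the 6 ESC markers included, beside 7.49% of all genes. With the replicate block 4 of 18 passed, *Thy1*, *Cdx2* and the ESC markers *Pou5f1* and *Zfp42*, the latter pair higher in KO, beside 14.6% of all genes. With edgeR and the block 4 of 19 passed, *Thy1*, *Cdx2*, *Gata3* and *Eomes*, beside 3739 of all 14995 genes tested. Of the 20 markers, 0 passed in 5 of the 6 DESeq2 fits without 1 library, where 2 or 3 had an unadjusted p under 0.05, and 2 (*Thy1* and *Gata3*) passed in the fit without WT replicate 3. Without both replicate 3 libraries 0 passed (4 unadjusted). The part of these markers in the differences of the methylation genes was not tested.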
